A study of Arabidopsis thaliana with 15 samples.

Results

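The SAUR (small auxin-up RNA) genes are the largest family of early auxin-responsive genes in Arabidopsis thaliana. Their transcripts accumulate soon after the growth hormone auxin is perceived, and most of them encode short proteins from a gene without introns. Several SAUR proteins bind and inhibit phosphatases of the PP2C.D group, which keeps the plasma membrane proton pumps AHA1 and AHA2 active, so that the cell wall is acidified and the cell can expand. Many SAUR genes lie side by side on a chromosome as tandem copies. The genes described here were the nuclear protein coding genes of the TAIR10 annotation (RefSeq release TAIR10.1) that had a symbol or synonym SAUR followed by a number, or a product described as SAUR-like. They numbered 80 of 27444. All 80 were found by a name, 16 of them as the symbol and the others as a synonym, and 78 also had a SAUR-like product.

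The histone marks were H2AK121ub, histone H2A with ubiquitin on a lysine of its tail, which is set by Polycomb repressive complex 1 (PRC1), and H3K27me3, histone H3 with a trimethylated lysine, which is set by PRC2. The series held 15 libraries of whole seedlings in the Col-0 background at 10 days after germination: 14 ChIP libraries in 7 groups of 2 replicates (H2AK121ub in wild type, emf1 and ring1ab, and H3K27me3 in wild type, emf1, ring1ab and lhp1) and 1 wild-type input. The data used were 2 lists of consensus peaks of the wild type (WT), 1 for each mark, in which replicates were combined, so the mutants were not analysed here. The study's methods also combine WT peaks of an earlier age, and the lists do not settle whether those are in them. The lists gave positions and no signal. The depth behind a peak was therefore unknown, replicates could not be compared, and a gene without a peak is a gene without a call, not one shown to lack the mark. Whole seedlings hold many cell types, so whether both marks over a gene lay in the same cells cannot be told apart from these lists. The H2AK121ub list held 16310 peaks with a median length of 978 bp, and the H3K27me3 list 4367 peaks with a median of 2925 bp.

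The SAUR genes were short. The gene body had a median of 815 bp (396 to 2865 bp), against 2078 bp over all protein coding genes, and the coding part a median of 366 bp (261 to 2025 bp). A single exon was annotated in 73 of 80 (91.2%), against 18.9% of all genes. The members lay on all 5 chromosomes, 20, 12, 14, 18 and 16 of them on chromosomes 1 to 5. The name was no guarantee of the protein. SAUR79 (AT2G35290) was annotated as an uncharacterized protein, and AT5G01830, which carries the name SAUR21, as an ARM repeat protein with the longest coding part, 2025 bp. AT5G18030 also carries the name SAUR21, and SAUR21 without an identifier means that gene here. SAUR68 means AT1G29490 and SAUR67 means AT1G29510, which the table also lists under SAUR68.

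Tandem members were separated from lone ones. An array was a run of members with at most 1 other protein coding gene between neighbours and less than 20 kb from start to start. Genes between were counted in order of their start positions. By this count AT4G38820, which lies inside the SAUR13 body, and CRK26 both separated SAUR13 from SAUR14. SAUR13 was therefore counted as lone, although it shared an H2AK121ub peak with SAUR14 and SAUR15. There were 10 arrays, 7 of at least 3 members and 3 pairs, which held 34 of the 80 genes and left 46 lone genes. Sequence likeness within the family differed greatly. The identity of the coding sequence with the closest other member had a median of 68.8% and ran from 23.0% to 97%. Linking members at 75% identity gave 5 groups of relatives with 27 genes.

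The largest group of relatives held 12 genes, among them SAUR19 to SAUR24, whose proteins promote cell expansion and inhibit PP2C.D phosphatases. The first 54 coding bases of these 6 genes are printed because they show how alike the copies were whose marks are compared below. Capitals mark bases that differ from SAUR19 at the same position. The genes lie on chromosome 5 of TAIR10, and these bases are exonic, at chr5:5963252-5963305 (minus strand) for SAUR19, chr5:5966527-5966580 (minus) for SAUR20, chr5:5968527-5968580 (plus) for SAUR21, chr5:5974910-5974963 (minus) for SAUR22, chr5:5976030-5976083 (plus) for SAUR23 and chr5:5983840-5983893 (plus) for SAUR24.
SAUR19: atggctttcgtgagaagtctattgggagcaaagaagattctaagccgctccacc
SAUR20: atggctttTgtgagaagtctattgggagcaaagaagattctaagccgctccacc
SAUR21: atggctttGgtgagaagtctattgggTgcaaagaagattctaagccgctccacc
SAUR22: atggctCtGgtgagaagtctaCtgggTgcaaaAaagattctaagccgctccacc
SAUR23: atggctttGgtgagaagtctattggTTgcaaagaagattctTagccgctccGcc
SAUR24: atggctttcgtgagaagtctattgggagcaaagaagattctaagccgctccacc
SAUR24 had the same 54 bases as SAUR19, and the others differed from it at 1 to 5 of them. Over the whole coding part SAUR24 was 95.2% identical to SAUR19, and SAUR20 to SAUR23 were 89.5% to 93.8% identical to it.

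The second group held 6 genes of the SAUR63 kind (SAUR62, SAUR63, SAUR64, SAUR66, SAUR67 and SAUR75), which are known for elongation of hypocotyls and stamen filaments. The same 54 bases are shown for 3 of them because parts of these genes occur more than once in the genome, which bears on whether reads can be placed there. Capitals mark bases that differ from SAUR67. The positions are exonic, at chr1:10322683-10322736 (plus) for SAUR67, chr1:10303173-10303226 (minus) for SAUR62 and chr5:9839260-9839313 (minus) for SAUR75.
SAUR67: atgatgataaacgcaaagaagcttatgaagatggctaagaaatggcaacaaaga
SAUR62: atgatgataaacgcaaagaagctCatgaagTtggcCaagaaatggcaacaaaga
SAUR75: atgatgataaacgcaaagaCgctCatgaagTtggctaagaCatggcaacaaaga
SAUR62 on chromosome 1 and SAUR75 on chromosome 5 were the closest pair of the family, with 97% identity. The share of 100-base words of the gene body found once in the assembly was 91.4% in SAUR62, 81.1% in SAUR63, 78.4% in SAUR67 and 88.4% in SAUR75. It was 100% in each of the other 76 members, and in 93.2% of all protein coding genes.

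H2AK121ub was the prevailing mark of the SAUR genes, and H3K27me3 was called only on genes that also had H2AK121ub. A gene was counted as marked when a peak met the gene body, or the 750 bp before the start, by at least 1 bp. H2AK121ub was called on 65 of 80 genes (81.2%, 95% Wilson interval 71.3 to 88.3%), against 68.1% of all protein coding genes. H3K27me3 was called on 27 (33.8%, 24.3 to 44.6%), against 29.2%. Only-H2AK121ub genes numbered 38 (47.5%, 36.9 to 58.3%; 43.9% of all genes), H2AK121ub/H3K27me3 genes 27 (33.8%; 24.2% of all genes) and genes with neither mark 15 (18.8%, 11.7 to 28.7%; 26.9% of all genes). No SAUR gene was only-H3K27me3, against 4.93% of all genes. The Wilson interval of 0 of 80 reached 4.58%, and the share that 3 counts would make is 3.75%. The intervals treat genes as independent and cover counting error only. Neighbours shared peaks, so the intervals are too narrow, and no test over genes was made.

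**Figure D1:**
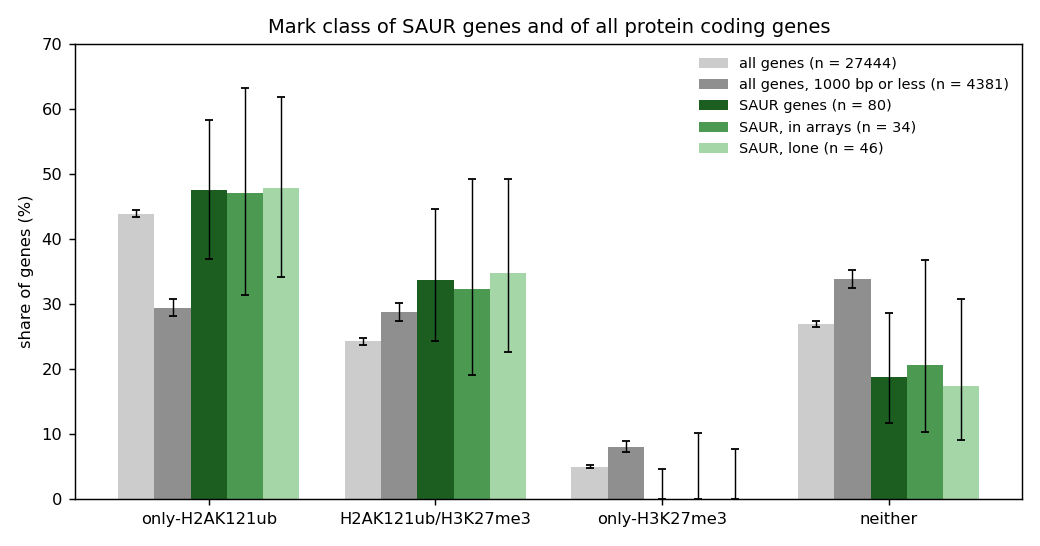
Share of genes (%) in each mark class for all protein coding genes, all genes of at most 1000 bp, SAUR genes, and SAUR genes in arrays or lone; bars are shares and lines 95% Wilson intervals. Only-H2AK121ub held 47.5% of the SAUR genes and only-H3K27me3 none, and the array and lone bars lay within each other's intervals.

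Length was set beside these shares, since SAUR genes were short and the shares of short genes differed from those of all genes. Among genes of at most 1000 bp, H2AK121ub was called on 50 of 64 SAUR genes (78.1%, 66.6 to 86.5%), against 58.2% of all such genes, and H3K27me3 on 21 (32.8%), against 36.8%. Only-H3K27me3 held 0 of these 64, against 8.03% of all genes of that length. Among genes with 1 exon the H2AK121ub shares were 82.2% of 73 SAUR genes (71.9 to 89.3%) and 72.3% of all genes, and the H3K27me3 shares 32.9% and 37.4%. The H2AK121ub share of the SAUR genes thus lay above that of short genes, which was below its interval, whereas that of single-exon genes was inside the interval. The H3K27me3 share lay above that of all genes and below that of short and of single-exon genes, but near each of them. All of these shares were inside the matching SAUR intervals. The intervals were 24.3 to 44.6% for all SAUR genes, 22.6 to 45.0% for short ones and 23.2 to 44.3% for single-exon ones.

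Array and lone genes had like shares of both marks. In arrays, H2AK121ub was called on 79.4% of 34 genes (63.2 to 89.7%) and H3K27me3 on 32.4% (19.1 to 49.2%). In lone genes these were 82.6% of 46 (69.3 to 90.9%) and 34.8% (22.7 to 49.2%). The intervals overlapped almost wholly. Of the 10 arrays, 5 were of a single class throughout and 5 held more than 1, and the array shares rested on few places. Without chromosome 1, which carries the 7 array genes with neither mark, H2AK121ub was called on 100% of the array genes, and without chromosome 4, which carries the SAUR1 to SAUR5 array, H3K27me3 on 16.7%.

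The array on chromosome 4 from SAUR49 to SAUR5 (chr4:16577180-16599568) was the largest, with 7 members on 22389 bp, and the one with the most genes under both marks. H2AK121ub lay over 88.6% of its span and H3K27me3 over 60.5%. SAUR1, SAUR2, SAUR3, SAUR4 and SAUR5 shared 1 H2AK121ub peak of 11237 bp and 1 H3K27me3 peak of 9794 bp, the whole of which was under H2AK121ub. The bodies of SAUR1 to SAUR4 were covered 100% by both marks. SAUR5 at the end of the row had 100% of its body under H2AK121ub and 0% under H3K27me3, with H3K27me3 only in the window upstream. SAUR50, whose product promotes the opening of cotyledons in light, had 100% and 75.8%. SAUR49, which has been linked to leaf senescence, was the only-H2AK121ub gene of the row, with 42.5% of its body covered and the nearest H3K27me3 peak 667 bp beyond its 3′ end.

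Both marks also met in the pair SAUR70 and SAUR76 on chromosome 5 (chr5:7043758-7047446). One H2AK121ub peak of 3725 bp and 1 H3K27me3 peak of 5863 bp ran over both genes, and 97.8% and 93.5% of the span was covered. SAUR70 had 96.1% of its body under H2AK121ub and 88.5% under H3K27me3, and SAUR76, which has been linked to root growth, had 100% under both. The coding parts of these neighbours were only 45.3% identical.

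In 3 arrays H3K27me3 reached 1 edge gene. SAUR7, SAUR6 and SAUR12 on chromosome 2 (chr2:9083906-9090052) lay within 1 H2AK121ub peak of 7805 bp that covered the span by 100%, while H3K27me3 covered 32% of it. SAUR12 had 100% of its body under H3K27me3, and SAUR7 and SAUR6, whose bodies overlap each other, had 0%. On chromosome 4, SAUR14 and the neighbouring SAUR15 were only-H2AK121ub with bodies covered 100%, and SAUR16 had 100% under H2AK121ub and 53.3% under H3K27me3. SAUR14 and SAUR16 are, like SAUR50, genes that light induces in cotyledons. In the pair SAUR51 and SAUR52 on chromosome 1, the longest H2AK121ub peak at any SAUR gene (14083 bp) covered both bodies by 100%, and H3K27me3 covered 17.0% of SAUR52 and none of SAUR51.

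The arrays made up wholly or mostly of relatives of SAUR19 carried H2AK121ub and no H3K27me3. SAUR73 was the only gene in them outside that group of relatives. SAUR19, SAUR20 and SAUR21 (chr5:5962773-5969190) shared an H2AK121ub peak of 7564 bp, with 100%, 100% and 75.6% of the body covered. SAUR22 and SAUR23 (chr5:5974341-5976589) shared a peak of 1912 bp, with 86.2% and 71.1%. SAUR28, SAUR27, SAUR73 and SAUR26 on chromosome 3 (chr3:979976-983768), of which SAUR26 to SAUR28 act in growth at raised temperature, shared a peak of 4488 bp that covered 80.6% of SAUR28 and 100% of the other 3. SAUR24 lies in the same stretch of chromosome 5 beyond SAUR23 and was counted as lone because of the genes between. It had neither mark, and its nearest H2AK121ub peak began 1049 bp beyond its 3′ end. SAUR24 and SAUR19, printed above, thus differed in call although their coding sequences were 95.2% identical. The words of both bodies were each found once in the assembly (100%), and the cause of the difference was not tested.

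The arrays with genes of the SAUR63 kind stood apart in having almost no peaks. SAUR61, SAUR65 and SAUR68 in them were outside that group of relatives. SAUR61, SAUR62, SAUR63, SAUR64 and SAUR65 (chr1:10301377-10308246) had H2AK121ub on 12.5% of the span and no H3K27me3. All of it lay at SAUR65, with 96.2% of the body covered by a peak of 1620 bp. This peak began 41 bp beyond the upstream window of SAUR64. SAUR68, SAUR66 and SAUR67 (chr1:10319732-10323239) had no peak of either mark on 3508 bp, and the nearest H2AK121ub peaks were 5139 to 7830 bp away from body and window. These neighbours made up 7 of the 15 SAUR genes with neither mark.

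The 12 other protein coding genes inside these wider clusters were read too. Of them, 8 were only-H2AK121ub, 2 H2AK121ub/H3K27me3 and 2 had neither mark, so that H2AK121ub was called on 10 of 12 (83.3%), against 68.1% of all genes. CRK26, a receptor-like kinase between SAUR13 and SAUR14, had 100% of its body under the H2AK121ub peak of these SAUR genes. Among the 8 shared H2AK121ub peaks, that over SAUR13, SAUR14 and SAUR15 was 8144 bp long and met 5 protein coding genes.

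Peaks at SAUR genes were long. The 51 H2AK121ub peaks that met a member had a median of 2309 bp, against 978 bp over the list, with 5302 bp for the 13 at array genes and 2241 bp for the 39 at lone genes. The 22 H3K27me3 peaks had a median of 3935 bp, against 2925 bp. A longer peak meets a gene more easily, which is part of any such comparison. Of the H2AK121ub peaks, 8 met at least 2 members and held 24 genes, and of the H3K27me3 peaks 2 did, with 7 genes.

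Where a SAUR gene was marked, the mark usually lay over the whole body. H2AK121ub covered the body fully in 38 of 65 marked SAUR genes (58.5%), with a median cover of 100% (quartiles 79.2 and 100%), against a median of 37.9% and 12.2% fully covered among all marked genes. Among marked genes of at most 1000 bp, 62.0% of the SAUR genes and 36.1% of all genes were fully covered. H3K27me3 covered the body fully in 16 of 27 (59.3%), against 41.8% of all marked genes, and at most 1000 bp the shares were 71.4% and 66.3%. Full cover by H2AK121ub was found in 20 of 27 marked array genes (74.1%) and in 18 of 38 marked lone genes (47.4%). The mark lay in the upstream window alone in SAUR38 and SAUR39 for H2AK121ub and in SAUR5, SAUR37 and SAUR69 for H3K27me3.

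The start of the gene was under H2AK121ub in 52 of 80 SAUR genes (65.0%, 54.1 to 74.5%), against 30.2% of all genes and 35.3% of those of at most 1000 bp. It was under H3K27me3 in 19 (23.8%, 15.8 to 34.1%), against 17.7% of all genes and 28.9% of the short ones. Read every 50 bp, the share under H2AK121ub was highest from 300 to 400 bp after the start, at 76.2%, and in all genes 350 bp after it, at 51.3%. At 1000 bp before the start, 67.6% of the array genes were under a peak, 41.3% of the lone genes and 24.9% of all genes. In arrays this position can lie in a neighbouring member. How often it did was not counted, and its part in the difference was not tested.

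**Figure D2:**
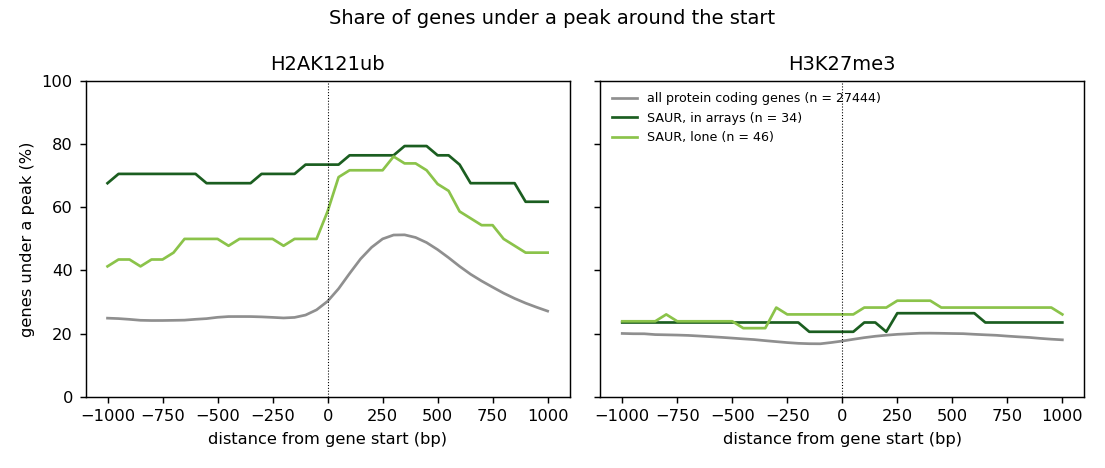
Share of genes (%) under an H2AK121ub peak (left) or an H3K27me3 peak (right) by distance from the gene start (bp) for array SAUR genes, lone SAUR genes and all protein coding genes. The H2AK121ub line of lone SAUR genes was at 58.7% at the start and 76.1% 300 bp after it, while that of array genes stayed above 60% throughout.

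Among the 27 H2AK121ub/H3K27me3 genes, both marks shared a median of 1095 bp (0 to 1834 bp) of the body and window. The longest shared stretches were in SAUR70 (1834 bp), SAUR9 (1690 bp) and SAUR10 (1622 bp). SAUR9 encodes a known PP2C.D inhibitor, and SAUR10 is known for effects on the angle and growth of stems and branches. In 13 of the 27 the whole body lay under both marks (48.1%), against 13.7% of all genes of the class. That reference was not matched for length. Full cover by a single mark was more frequent in marked genes of at most 1000 bp than in all marked genes. It was 36.1% against 12.2% for H2AK121ub and 66.3% against 41.8% for H3K27me3. H2AK121ub covered more of the body than H3K27me3 in 10 and less in 4 (SAUR25, SAUR31, SAUR39 and SAUR55). SAUR31 had 37.4% under H2AK121ub and 100% under H3K27me3, in a 12068 bp peak that was the longest of its mark at any SAUR gene. SAUR37 was the gene of the class in which the marks shared no base, with H2AK121ub in the body and H3K27me3 in the window. SAUR36, a senescence-associated gene of leaves, had 100% of its body under H2AK121ub and 80.1% under H3K27me3.

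**Figure D3:**
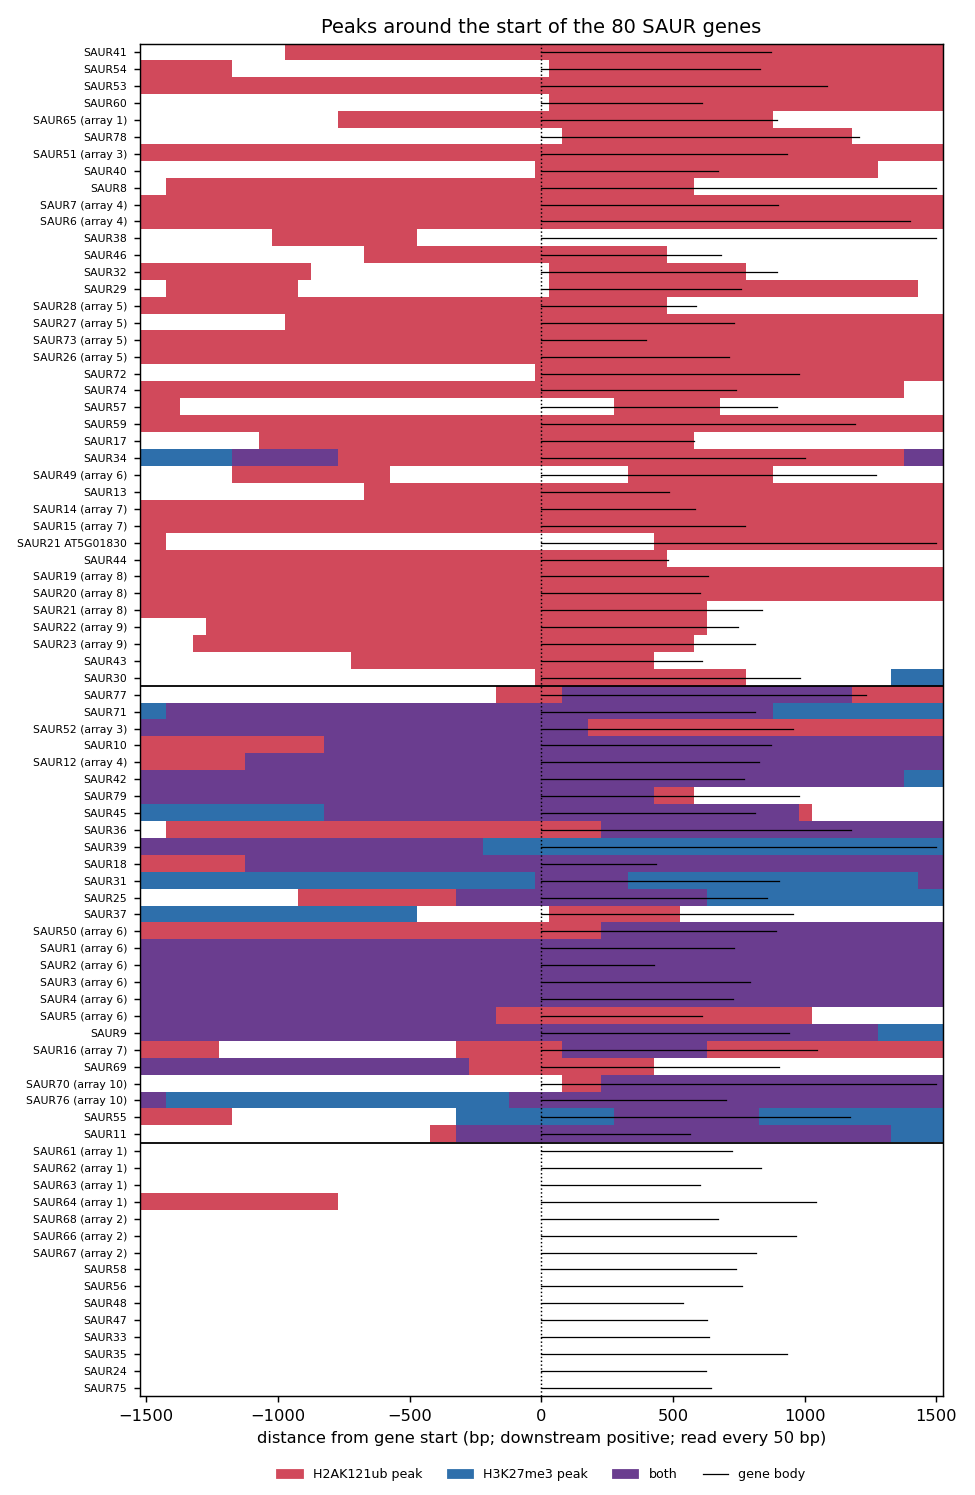
Peaks from 1500 bp before to 1500 bp after the start of each of the 80 SAUR genes, read every 50 bp (red, H2AK121ub; blue, H3K27me3; purple, both; black line, gene body), ordered by mark class and position. The 38 only-H2AK121ub genes are at the top, the 27 genes with both marks in the middle and the 15 with neither at the bottom; array numbers run along the chromosomes.

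Among the 38 only-H2AK121ub genes, 19 had the body covered fully and 29 the start under the peak. SAUR41, which acts in cell expansion of the hypocotyl, had 100% of its body covered, and SAUR32, which acts in the apical hook, 85.0%, with its start outside the peak. SAUR17, which keeps the hook closed in the dark, and SAUR72, linked to leaf senescence, had 100%. The distance from body and window to the nearest H3K27me3 peak had a median of 6072 bp (32 to 55989 bp). SAUR34 was closest to a change of class, with an H3K27me3 peak 32 bp outside its body and window, followed by SAUR30 with 322 bp.

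The 15 genes with neither mark were SAUR61 to SAUR64 and SAUR66 to SAUR68 of the arrays, and SAUR24, SAUR33, SAUR35, SAUR47, SAUR48, SAUR56, SAUR58 and SAUR75. Their bodies with windows lay a median of 3218 bp (41 to 29451 bp) from H2AK121ub and 10905 bp (1014 to 32848 bp) from H3K27me3. Their bodies had a median of 723 bp. The 4 members with repeated 100-base words were all among them, and the part of repeated sequence in these missing calls was not tested. The other 11 had bodies found once in the assembly, as had all 65 marked members. With genes of at least 90% unique words alone, H2AK121ub was called on 84.4% of 77 SAUR genes, and 15.6% had neither mark. This alternative was chosen after seeing the data.

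Relatives by coding sequence were compared in class. The group with SAUR19 to SAUR24 (12 genes on 4 chromosomes: SAUR7, SAUR13, SAUR19 to SAUR24, SAUR26 to SAUR29) had 11 only-H2AK121ub genes and SAUR24 with neither, and none with H3K27me3. The 6 genes of the SAUR63 kind had neither mark, SAUR75 on chromosome 5 included. SAUR8, SAUR12, SAUR16 and SAUR50 on chromosomes 2 and 4 formed a group with 3 H2AK121ub/H3K27me3 genes and 1 only-H2AK121ub gene (SAUR8). SAUR52, SAUR53 and SAUR69 formed one with 2 and 1, and SAUR51 and SAUR54 were both only-H2AK121ub. Over the family, the closest relative had the same class in 41 of 80 (51.2%). Pairs that were each other's closest, such as SAUR62 and SAUR75, enter this count from both sides. The share for members paired without regard to sequence was not computed, so 51.2% cannot be read as high or low. Members of a group often share an array and a peak, so these counts are a description.

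The upstream sequence was searched for letters known from auxin and light responses, on both strands in the 250 bases before the start: the auxin response element TGTCTC, its core TGTC, which every TGTCTC also holds, and the G-box CACGTG, which factors of the PIF and BZR1 kind bind. TGTCTC was found in 7 of 80 SAUR promoters (8.75%, 4.30 to 17.0%), against 10.9% of all promoters of that length. All 7 belonged to array genes (SAUR7, SAUR15, SAUR20, SAUR22, SAUR62, SAUR66 and SAUR67) and none to the 46 lone genes, and by mark 4 were only-H2AK121ub, 3 had neither mark and 0 of 27 had both. The interval of 0 of 27 reached 12.5%, which includes the 10.9% of all promoters. That of the lone genes reached 7.71%, and that of the array genes was 10.3 to 36.8%. SAUR7, SAUR20 and SAUR22 are relatives by coding sequence, as are SAUR62, SAUR66 and SAUR67, so the matches are not independent. The counted windows were not cleared of other genes. That of SAUR7 lay wholly inside the annotated SAUR6 gene, so its matches are in a neighbouring gene. TGTC was found in 78.8% of SAUR promoters and 74.8% of all, and CACGTG in 1 (SAUR59), against 6.49% of all. The share with the longer element was thus not above that of all promoters. A match is not a binding site, and a missing match says only that the letters are not in this window.

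The windows of SAUR15, SAUR66 and SAUR59 are printed to show where the matches lie, with matches to either longer motif in capitals, on the other strand where they read GAGACA. They hold no annotated gene. SAUR15 (formerly SAUR-AC1; chr4:18125807-18126056, plus) had 1 match that began 92 bases before the start, and the window and gene were wholly under H2AK121ub. SAUR66 (chr1:10320761-10321010, plus) had 2 matches, 170 and 111 bases before the start, and neither mark. SAUR59 (chr3:22434614-22434863, plus), only-H2AK121ub with its window and body wholly covered, had 2 G-boxes, 137 and 124 bases before the start.
SAUR15: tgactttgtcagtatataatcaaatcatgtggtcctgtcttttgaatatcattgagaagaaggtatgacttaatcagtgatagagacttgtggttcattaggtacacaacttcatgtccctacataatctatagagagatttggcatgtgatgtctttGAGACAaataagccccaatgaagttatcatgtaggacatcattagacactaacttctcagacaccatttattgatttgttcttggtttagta
SAUR66: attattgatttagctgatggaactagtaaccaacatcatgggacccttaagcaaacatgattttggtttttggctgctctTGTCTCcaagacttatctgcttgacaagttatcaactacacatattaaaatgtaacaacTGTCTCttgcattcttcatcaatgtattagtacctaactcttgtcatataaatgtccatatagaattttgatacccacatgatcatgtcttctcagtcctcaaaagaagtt
SAUR59: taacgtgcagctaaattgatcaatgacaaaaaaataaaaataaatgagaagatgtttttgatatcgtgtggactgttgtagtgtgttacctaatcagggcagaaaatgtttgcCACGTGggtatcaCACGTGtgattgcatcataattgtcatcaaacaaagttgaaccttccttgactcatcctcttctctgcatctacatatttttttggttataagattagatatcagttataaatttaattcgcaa

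Genes that act before and after SAUR proteins in auxin-driven growth were read by the same rule, in 1 list with 6 GH3 genes, which are other early auxin genes. Of these 30 genes, 19 were only-H2AK121ub (63.3%, against 43.9% of all genes), 7 H2AK121ub/H3K27me3 (23.3%, against 24.2%), 0 only-H3K27me3 (against 4.93%) and 4 had neither mark (13.3%, against 26.9%). The GH3 genes gave 4 of the 7 with both marks. The listed genes were 1871 to 6109 bp long, and the reference was not matched for length. Class shares differed with length, since only-H2AK121ub held 29.4% of all genes of at most 1000 bp. The 6 auxin receptors (TIR1 and AFB1 to AFB5) were all only-H2AK121ub, with 6.70% to 26.1% of the body covered. Of the 5 activating auxin response factors, ARF6, ARF8 and ARF19 were only-H2AK121ub, ARF5 had both marks and ARF7 neither. PIF4, a transcription factor of growth in warm and shaded seedlings, was only-H2AK121ub with 91.5% of its body covered, and BZR1, of the brassinosteroid pathway, with 15.3%. Of the 9 PP2C.D phosphatases, 4 were only-H2AK121ub, 2 had both marks (PP2C.D2 and PP2C.D6) and 3 neither. Both proton pumps were only-H2AK121ub (19.7% for AHA1 and 18.3% for AHA2). In ARF5, PP2C.D2 and PP2C.D6, H3K27me3 met the upstream window alone and covered 0% of the body. H2AK121ub covered 17.2%, 0% and 1.26% of these bodies.

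The other early auxin genes in that list, the GH3 genes, whose enzymes join auxin to amino acids, also had much of the body covered. GH3.1, GH3.2, GH3.3 and GH3.17 had both marks, and GH3.5 and GH3.6 were only-H2AK121ub. H2AK121ub covered 43.9% to 100% of the 6 bodies, and GH3.3 had 100% under each mark, as had SAUR1 to SAUR4.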

How the data were processed

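ChIP-seq peaks of WT seedlings were used. Per the study's methods, the authors aligned reads (Bowtie, TAIR10), ran MACS2 with its defaults on each replicate with the input as control, and combined the regions shared by replicates; versions are not given in the sources used here. The deposited lists held chromosome, start and end (3 columns, 0-based start as in BED, printed from 1) and no count, signal or score. No peak ran past its chromosome in the RefSeq copy of the assembly, whose annotation gave genes, names and sequences.

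Peaks were overlapped with the body and 750 bp upstream of each gene in Python 3.11.15 with numpy 2.4.6; figures were drawn with matplotlib 3.10.9. Functions for overlap, cover, arrays and unique words were tested on simulated data. Coding identity came from global alignment (biopython 1.88). The start of a gene was the first base of its annotated span. Shares have 95% Wilson intervals (scipy 1.17.1). No test between groups was made, since the lists hold no replicates. For 0 of 80 only-H3K27me3 genes, the share that 3 counts would make was given beside the Wilson limit.

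The members and the lists of genes were chosen with earlier results of these data known. Named were all genes of arrays of at least 3, the 3 longest stretches under both marks, SAUR genes with a described function, the class with fewest members (which was empty), and examples of other groups. Promoter windows were 250 bases cut from the genome, and no protein sequences were used.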

Additional observations from a re-analysis of the deposited data

How the results depend on the processing

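The 10 shares and medians were recomputed under 18 alternatives: no upstream window or one of 1500 bp, an overlap of at least 200 bp, peaks of at least 200 bp, peaks merged over gaps of at most 500 bp, other rules for members and arrays, short genes, and each chromosome left out. Of 125 combinations for the 8 shares, all but 4 stayed within the interval of the value as reported, and these 4 moved by leaving out a chromosome. Some alternatives could not move a share. All 80 members were found by a name, and the shortest peaks at members were 372 bp (H2AK121ub) and 559 bp (H3K27me3). Allowing no other gene between array neighbours left the same 34 array and 46 lone genes. Without chromosome 1 the H2AK121ub share was 90%, the share with neither mark 10% and the H2AK121ub share of array genes 100%. Without chromosome 4 the H3K27me3 share of array genes was 16.7%. Over all alternatives the H2AK121ub share ran from 77.4% to 90%, the H3K27me3 share from 25.8% to 40%, that of array genes from 16.7% to 41.7% and that of lone genes from 29.7% to 38.9%. The 2 median body covers were at their ceiling of 100% throughout, which says nothing about stability. The rule without the ARM repeat gene, the wider array rule and the rule on unique words were chosen after seeing the data. No paired analysis was possible because replicates are combined in each list; leaving out a replicate could not be run for the same reason. Depth is unknown, so weak peaks cannot be told from strong ones.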
